A study of Homo sapiens with 6 samples.

Results

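Amino acid transporters move amino acids across the plasma membrane and the lysosomal membrane. The genes described here are the rows of the deposited table named as SLC1, SLC7, SLC36, SLC38 or SLC43 family members, together with SLC3A1, SLC3A2, SLC6A9 and SLC6A14. SLC7A11, the cystine-importing light chain, was left out by that rule. The rule uses names alone and found 41 genes among the 61806 of the table. RNA was measured in wild-type A549 cells, an established human lung adenocarcinoma line. Cells were seeded for 24 h and then given either the solvent DMSO (3 libraries) or Japoflavone B (3 libraries) for 24 h. The series title calls Japoflavone B a PARP1 inhibitor, and the labels give its dose as 40 without a unit. Both groups are of the same line, and the labels do not say whether libraries came from separate cultures, so p-values measure only the spread between these libraries.

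Cells take up amino acids through carriers of several kinds. Exchangers swap one amino acid for another, sodium- or proton-coupled carriers accumulate them, and light chains of the SLC7 family reach the membrane only when bound to a heavy chain, SLC3A2 or SLC3A1. In proliferating carcinoma cells, SLC1A5 brings in glutamine, and the pair SLC7A5 and SLC3A2 brings in leucine and other large neutral amino acids, which feed protein synthesis and the growth kinase mTORC1. Shortage of amino acids activates the kinase GCN2 and the transcription factor ATF4, which is known to raise the transcription of several carriers and of asparagine synthetase.

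Library totals were 15298531 to 21744407 gene counts. Library pairs correlated at 0.990 to 0.992 if of 1 group and at 0.926 to 0.931 if not (Pearson, log2 counts scaled for depth). The mitochondrial chromosome gave 4.36% ± 0.371 of the DMSO counts and 8.43% ± 0.127 of the Japoflavone B counts (SD, n = 3). Of 11 markers listed for A549 and lung epithelium, the keratins KRT7, KRT8 and KRT18 and the reductase AKR1B10 were abundant, EPCAM stood at 0.814 to 1.08 FPKM after DMSO, and the surfactant genes SFTPB and SFTPC had at most 5 counts per group. The summed level of these markers was 2847 to 3079 FPKM after DMSO and 1216 to 1272 after Japoflavone B. Summed over 10 markers of other cell types, the level was 5.16 to 5.85 FPKM after DMSO and 1.93 to 2.69 after Japoflavone B. The collagen gene COL1A1 made up most of it after DMSO (4.35 to 4.94 FPKM, then 0.434 to 0.538), and CD79A had 11 and 60 counts. CD3E was at 0 in all libraries and PTPRC had 2 counts and 0 counts. The part of these shifts in the results below was not tested, and in bulk RNA fewer cells of a type and less RNA per cell cannot be told apart.

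Carriers changed in both directions after Japoflavone B, and most changes were small. Of the 41 genes, 21 had enough counts to be tested, 8 of these rose and 10 fell (edgeR quasi-likelihood test, Benjamini-Hochberg adjusted p under 0.05 over 16082 genes). Among all genes tested, 34.7% rose and 35.4% fell, 70.0% together. The count of 18 carriers out of 21 is read against that background, and SLC3A1 entered the test only through its DMSO counts. Without it 17 of 20 changed, 8 up and 9 down. Changes reached 2-fold upward in 1 carrier, SLC7A1, and downward in 3, namely SLC36A4, SLC38A6 and SLC3A1, or 2 without SLC3A1 (background 9.67% and 15.0% of genes). FPKM of the groups did not overlap for 15 of the 21 (background 72.0%), and for 14 of 20 without SLC3A1. Fold changes use trimmed-mean scaling and so differ from ratios of FPKM, which are scaled by library totals. Scaling by library totals moved the log2 fold changes of all genes by a median of -0.10, which matters for the smallest changes. The median log2 fold change of the 21 was 0.013 and of all genes -0.0038, and the median absolute change was 0.43 and 0.53. The other 296 solute carrier genes in the table gave 77 higher and 62 lower of 189 tested, with a median of 0.13. When Japoflavone B replicate 3 was left out, 5 carriers in place of 10 were called lower. The 7 carriers SLC7A1, SLC1A4, SLC1A1, SLC1A5, SLC3A2, SLC38A1 and SLC38A9 were called higher, and the 5 carriers SLC36A4, SLC38A6, SLC7A6, SLC38A10 and SLC7A2 lower, in each of the 16 alternative settings. The plot of fold changes by family shows this split.

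**Figure D1:**
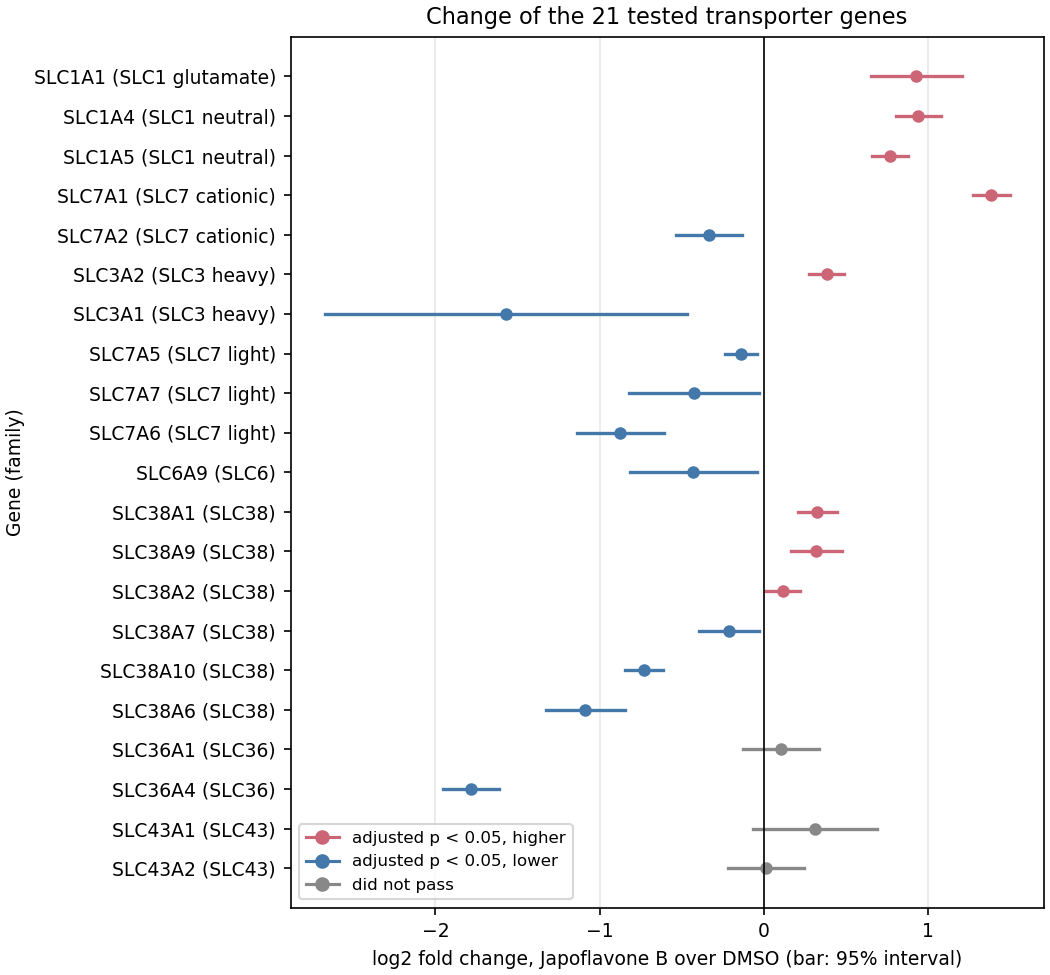
The log2 fold change of each of the 21 tested carrier genes is plotted as a point with its 95% interval, ordered by family and coloured by whether the adjusted p was under 0.05 and in which direction. The genes of the SLC1 family lie to the right of 0, the tested SLC7 light chains to the left, and SLC38 genes on both sides.

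Sequences around annotated start sites of the carriers were examined because several of them are known ATF4 targets and the ATF4 gene itself rose. ATF4 with a C/EBP partner binds a composite element whose common form was searched as TGATGNAA on both strands, from 250 bases before to 50 bases after each start site in the RefSeq promoter table (GRCh38.p14). The table held 33 of the 41 genes, with 55 start sites. A match lay at 6 of the 33 genes (18.2%), against 1217 of 27305 genes in the table (4.46%). Counted by start site, since these genes have more start sites each than the table as a whole, it was 6 of 55 (10.9%) against 1270 of 35116 (3.62%). Of the 8 carriers that rose, 5 had a match, at 16 start sites searched, and of the 8 carriers that fell and were in the table none had one, at 12 start sites. The sixth match was at SLC1A3, which was too low to be tested. The shorter core TGATG, which every full match contains, was found at 15 of 33 genes (45.5%) against 37.7% of all genes, and at 6 of the 8 that rose and 4 of the 8 that fell. Counted by start site, the core was found at 19 of 55 (34.55%) against 11557 of 35116 (32.91%), nearly the same share. A match describes letters in this window only. Shares among all genes that rose and among all that fell were not computed, so the split by direction has no background. Whether ATF4 binds these sites or raised these genes was not tested. The 5 matches at carriers that rose are shown in 30-base stretches, 5′ to 3′ on the gene's strand, with the match in capitals:
SLC7A1: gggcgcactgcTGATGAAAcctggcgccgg
SLC1A4: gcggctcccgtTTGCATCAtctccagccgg
SLC1A5: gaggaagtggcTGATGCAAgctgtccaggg
SLC38A1: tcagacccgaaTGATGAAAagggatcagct
SLC3A2: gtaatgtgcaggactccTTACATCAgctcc
SLC7A1 and SLC38A1 share the same 8 letters. SLC1A4 and SLC3A2 hold the element on the opposite strand. The stretches lie at chr13:29595663-29595692 (minus strand), chr2:64989381-64989410 (plus), chr19:46784893-46784922 (minus), chr12:46266502-46266531 (minus) and chr11:62881719-62881748 (plus), in the order shown. The leftmost base of the match lies 7 bases after the start site in SLC7A1 and 37 after it in SLC3A2, and 7, 97 and 4 bases before it in SLC1A4, SLC1A5 and SLC38A1. SLC3A2 and SLC1A5 have 3 start sites each in the table, and SLC1A4 and SLC38A1 have 2. The match lies at 1 of them, which need not be the one A549 cells use.

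Expression per exonic length spanned a wide range among the 41 genes. FPKM, the count scaled to exonic length and library total, averaged at least 1 in either group for 19 genes, lay below 1 for 15, and had no count in any library for 7. SLC7A5 was highest in both groups, followed by SLC38A2, SLC3A2, SLC1A5 and SLC38A1, and the libraries of neighbours in this order did not overlap. These 5 genes made up 89.0% ± 0.207 of the summed carrier FPKM in the DMSO libraries and 88.8% ± 0.407 in the Japoflavone B libraries (mean ± SD, n = 3). Below them, SLC38A10 stood above SLC7A1 after DMSO and below it after Japoflavone B, without overlap in either group. Lower in the order, 7 of 18 neighbouring pairs overlapped after DMSO, among them SLC38A7, SLC38A6, SLC38A9, SLC7A2 and SLC7A6. The plot of levels by library shows the order.

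**Figure D2:**
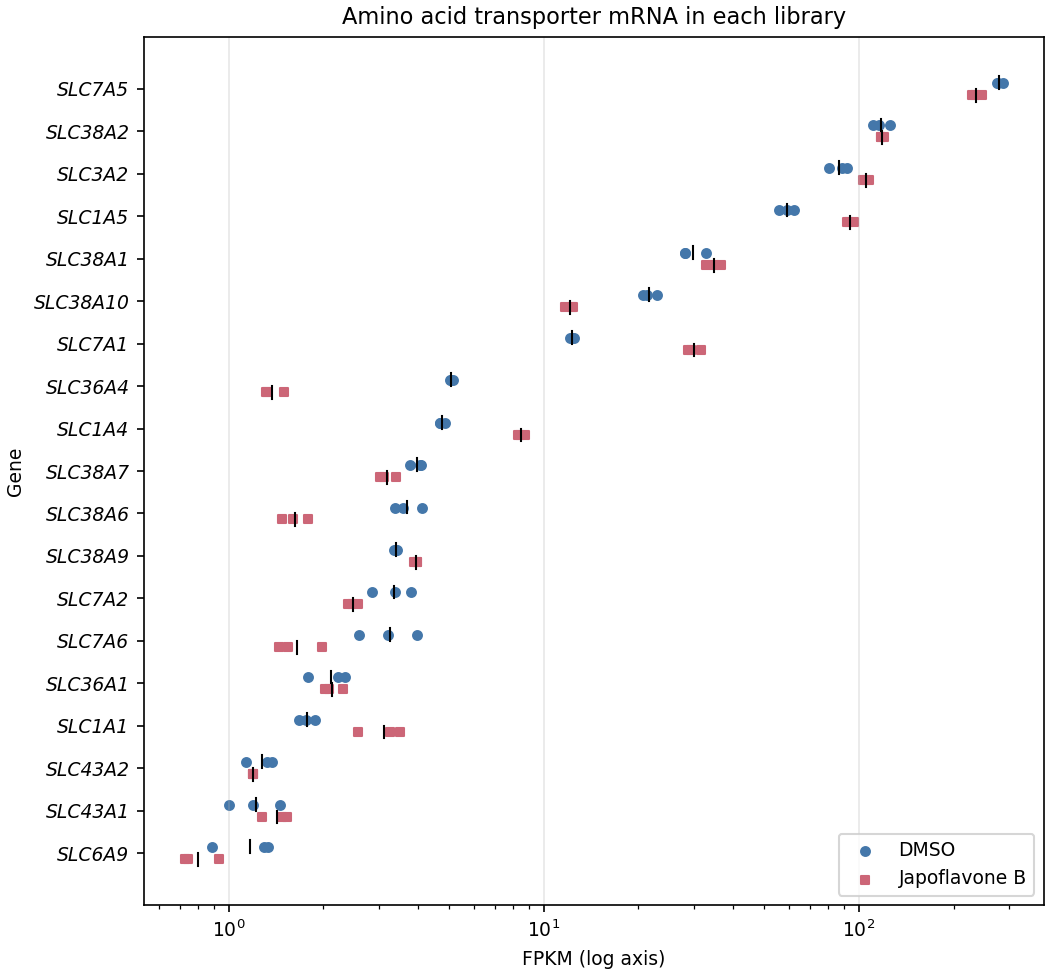
FPKM on a log axis for the 19 carriers that averaged at least 1 FPKM in a group, with 1 point per library (DMSO circles, Japoflavone B squares) and a black line at each group mean. The groups stand clearly apart for SLC36A4, SLC38A6, SLC38A10, SLC7A1, SLC1A4 and SLC1A5, and overlap for SLC38A2, SLC38A1, SLC36A1, SLC43A1, SLC43A2 and SLC6A9.

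The sum over the 41 genes changed little while its make-up shifted. Summed FPKM was 641, 645 and 642 in the DMSO libraries and 660, 674 and 657 in the Japoflavone B libraries. The groups did not overlap, yet the direction depends on the scale: as TPM, which scales each library to the same total of length-normalised counts, the sum was 2441 ± 11.8 in the DMSO libraries and 2328 ± 21.3 in the Japoflavone B libraries (mean ± SD, n = 3). SLC7A5 took 43.4% ± 0.881 of the carrier sum after DMSO and 35.6% ± 0.802 after Japoflavone B. SLC1A5 took 9.21% ± 0.470 and 14.1% ± 0.179, and SLC3A2 took 13.5% ± 0.869 and 15.9% ± 0.197. For each of these 3 shares the libraries of the groups did not overlap, and the exact two-sided permutation test gave p = 0.1, the smallest that 3 against 3 allows. The share of SLC38A2, 18.3% ± 1.19 and 17.9% ± 0.440, overlapped between groups (exact permutation p = 0.8).

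**Figure D3:**
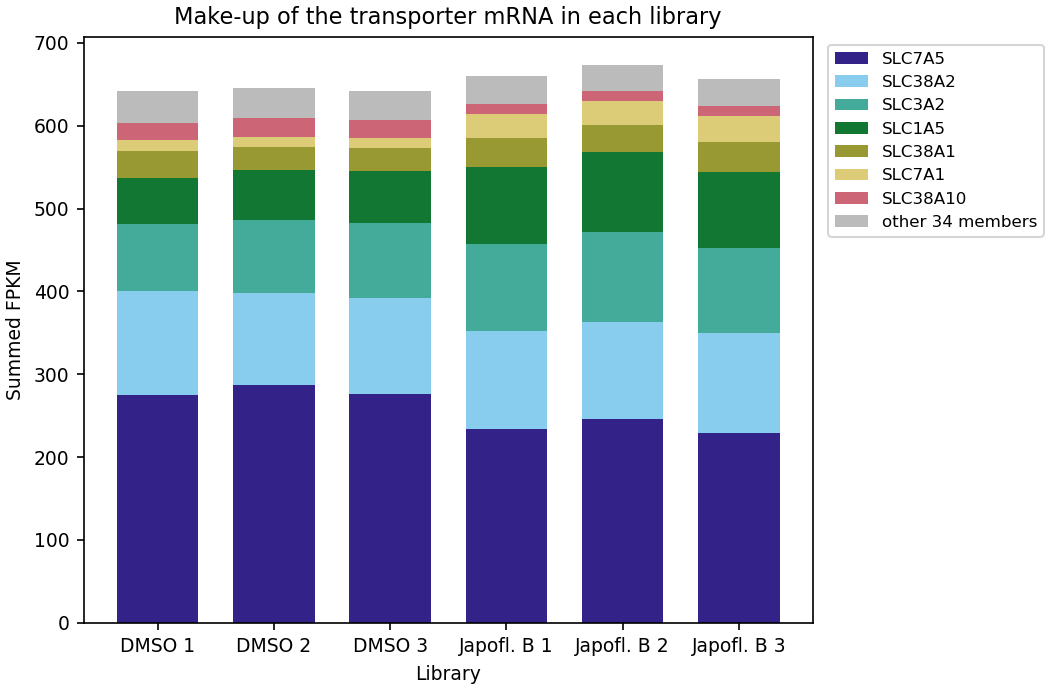
Each bar is the summed FPKM of the 41 carrier genes in 1 library, divided into the 7 most abundant genes and the other 34. The SLC7A5 section is smaller, and the SLC1A5 and SLC7A1 sections are larger, in the 3 Japoflavone B libraries than in the 3 DMSO libraries.

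The 3 SLC1 carriers with enough counts to be tested rose, and the other 4 were scarce. The family takes up glutamate and aspartate (SLC1A1, SLC1A2, SLC1A3, SLC1A6, SLC1A7) or exchanges small neutral amino acids (SLC1A4, SLC1A5). SLC1A5 (ENSG00000105281, chromosome 19, 46774883 to 46788594, GRCh38), the main glutamine exchanger, had 56.0, 59.4 and 62.2 FPKM in the DMSO libraries and 93.1, 96.7 and 92.0 in the Japoflavone B libraries. Every treated library lay above every solvent library, and the gene was 1.70-fold higher (log2 fold change 0.77 ± 0.05 SE, edgeR adjusted p = 3.61e-13). Of its 50-base stretches in GENCODE 29 transcripts, 21.3% also occur in another annotated gene, and the strand setting of the authors' counting is not given in the sources used here. SLC1A4 (ENSG00000115902, chromosome 2, 64988477 to 65023865), which exchanges alanine, serine and cysteine, had 4.87, 4.69 and 4.67 FPKM after DMSO and 8.44, 8.31 and 8.71 after Japoflavone B. The treated libraries were again all higher, 1.92-fold by the fit (log2 0.94 ± 0.07, adjusted p = 9.76e-13). The ratio of SLC1A5 to SLC1A4 FPKM was 12.5 ± 0.913 and 11.1 ± 0.540 and overlapped between groups (SD, n = 3).

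SLC1A1 (ENSG00000106688, chromosome 9, 4490468 to 4587469), a glutamate and cysteine importer, had 1.67, 1.76 and 1.88 FPKM after DMSO and 3.25, 2.57 and 3.51 after Japoflavone B. Treated libraries were higher but more spread, with replicate 2 lowest, and the fold was 1.9 (log2 0.93 ± 0.14, edgeR adjusted p = 7.45e-07). The brain glutamate carriers were at or near 0. SLC1A2 had 8 and 6 counts over the groups, SLC1A3 4 and 9, and SLC1A6 none. SLC1A7, a glutamate carrier of the retina, had 4, 7 and 3 counts in the DMSO libraries and none after Japoflavone B. Taking 3 counts over the group as the limit that a count of 0 allows gives a 4.35-fold fall. That figure leaves out the counting error of the DMSO counts, so the fall may be smaller.

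The cationic carriers SLC7A1 and SLC7A2 moved apart. SLC7A1 (ENSG00000139514, chromosome 13, 29509414 to 29595688), the general importer of arginine and lysine, had 12.5, 12.3 and 12.2 FPKM after DMSO and 29.4, 28.8 and 31.6 after Japoflavone B. The groups were far apart, and SLC7A1 rose most of the tested carriers, 2.61-fold (log2 1.38 ± 0.05, edgeR adjusted p = 1.00e-18). Of all genes tested, 94.6% had a fold change at or below it. SLC7A2 (ENSG00000003989, chromosome 8, 17497088 to 17570573), an inducible arginine carrier, had 3.80, 3.36 and 2.86 FPKM after DMSO and 2.58, 2.40 and 2.46 after Japoflavone B. The lowest solvent library was close to the highest treated one, and the fall was 1.26-fold (log2 -0.34 ± 0.10, adjusted p = 0.00342). The ratio of SLC7A1 to SLC7A2 FPKM, which does not depend on library scaling, was 3.73 ± 0.489 in the DMSO libraries and 12.1 ± 0.730 in the Japoflavone B libraries (mean ± SD, n = 3; exact permutation p = 0.1, the smallest possible). SLC7A3 had 1 count in all, and SLC7A4 and SLC7A14 none.

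The heavy chain SLC3A2 rose while its 3 tested light chains fell, of which SLC7A6 alone kept its call in every alternative setting. SLC3A2 (ENSG00000168003, chromosome 11, 62856004 to 62888880), also known as the CD98 heavy chain, had 80.5, 88.6 and 91.5 FPKM after DMSO and 105, 108 and 103 after Japoflavone B, without overlap. The fold was 1.30 (log2 0.38 ± 0.05, edgeR adjusted p = 2.74e-07). SLC7A5 (ENSG00000103257, chromosome 16, 87830023 to 87869507), its partner for leucine and other large neutral amino acids, had 275, 287 and 276 FPKM after DMSO and 234, 246 and 229 after Japoflavone B. All treated libraries lay below the solvent libraries, but the fall was small at 1.10-fold (log2 -0.14 ± 0.05, adjusted p = 0.0116). Its call was lost without DMSO replicate 2 (adjusted p = 0.0543), Japoflavone B replicate 1 (0.0708) or Japoflavone B replicate 3 (0.0892). With library totals as the scaling the log2 fold change of SLC7A5 was -0.24 (edgeR adjusted p = 3.6e-05). The FPKM ratio of SLC7A5 to SLC3A2 was 3.42, 3.24 and 3.01 in the DMSO libraries and 2.23, 2.27 and 2.22 in the Japoflavone B libraries (exact permutation p = 0.1, the smallest possible). The pseudogenes SLC7A5P1 and SLC7A5P2, also on chromosome 16, had no counts in any library, although 8.65% of the 50-base stretches of SLC7A5 occur in other annotated genes.

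SLC7A6 (ENSG00000103064, chromosome 16, 68264516 to 68301823), a light chain that exchanges cationic for neutral amino acids, had 3.95, 3.19 and 2.58 FPKM after DMSO and 1.97, 1.54 and 1.44 after Japoflavone B. Solvent libraries were spread but all higher, and the fall was 1.83-fold (log2 -0.87 ± 0.13, edgeR adjusted p = 9.28e-07). The gene shares 51.4% of its 50-base transcript stretches with other genes, chiefly SLC7A6OS on the opposite strand. SLC7A6OS moved the other way, with 436 counts after DMSO and 740 after Japoflavone B. SLC7A7 (ENSG00000155465), the related light chain mutated in lysinuric protein intolerance, had 0.962 ± 0.152 FPKM in the DMSO libraries and 0.664 ± 0.0760 in the Japoflavone B libraries (mean ± SD, n = 3). Its fall of 1.35-fold stood at the threshold (adjusted p = 0.0498) and was lost under 9 of 15 alternatives. These include leaving out replicate 1 or 3 of either group, where adjusted p ranged from 0.104 to 0.167.

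The other heavy chain and the remaining light chains were scarce. SLC3A1, which with SLC7A9 forms the renal cystine carrier, had 12, 22 and 14 counts in the DMSO libraries and 10, 1 and 3 in the Japoflavone B libraries. The fitted fall was 2.97-fold with a wide interval (log2 -1.57, 95% interval -2.67 to -0.47, edgeR adjusted p = 0.0113), and leaving out DMSO replicate 2, Japoflavone B replicate 2 or Japoflavone B replicate 3 ended the call (0.0573, 0.0619 and 0.0531). Without Japoflavone B replicate 1, which held 10 of the 14 treated counts, the log2 fold change was -2.66 (adjusted p = 0.00155). SLC3A1 overlaps PREPL on the opposite strand, a gene with 6712 and 4784 counts, and shares 52.6% of its 50-base stretches with other genes. SLC7A9 itself had 15 counts after DMSO and 27 after Japoflavone B, or 1.93 times as many per count sequenced (exact 95% interval 0.990 to 3.90). SLC7A8, a leucine-type light chain, had 19 and 33 counts, a ratio of 1.86 with an interval of 1.03 to 3.47. These intervals cover counting error only, since the labels mention no molecular identifiers. SLC7A10 had 2 counts and 0 counts, and SLC7A13 none.

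Sodium-coupled SLC38 carriers were divided, 3 higher and 3 lower of 6 tested, an even split like that over all genes (34.7% higher, 35.4% lower). SLC38A1 and SLC38A2, which accumulate glutamine and alanine, were the most abundant. SLC38A1 (ENSG00000111371, chromosome 12, 46183063 to 46270017) had 32.9, 28.1 and 28.2 FPKM after DMSO and 34.7, 32.8 and 36.5 after Japoflavone B. DMSO replicate 1 reached the lowest treated library in FPKM, and after scaling the gene was 1.25-fold higher (log2 0.33 ± 0.06, edgeR adjusted p = 1.58e-05). SLC38A2 (ENSG00000134294, chromosome 12, 46358188 to 46372773), the carrier whose mRNA is known to be induced by amino acid shortage, had 126, 111 and 116 FPKM after DMSO and 118, 118 and 121 after Japoflavone B. The groups overlapped, the fold was 1.08, and the call (adjusted p = 0.0436) was lost under 12 of 16 alternatives. With library totals as the scaling its log2 fold change was 0.01 (adjusted p = 0.814), and without DMSO replicate 2 or 3 or any 1 Japoflavone B library adjusted p was 0.0609 to 0.257. The ratio of SLC38A2 to SLC38A1 FPKM fell from 3.97 ± 0.144 to 3.43 ± 0.149 without overlap between groups (SD, n = 3; exact permutation p = 0.1, the smallest possible). SLC38A4 (chromosome 12, 46764761 to 46832408), their neighbour on the chromosome, had 1, 1 and 0 counts after DMSO and 14, 5 and 6 after Japoflavone B. That is a ratio of 13.4 with an exact 95% interval of 3.34 to 117, from very few reads, and its antisense gene SLC38A4-AS1 had 131 and 248 counts.

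Members of the same family that sit on lysosomes or are less studied differed. SLC38A9 (ENSG00000177058, chromosome 5, 55625845 to 55773194), the lysosomal arginine sensor of mTORC1, had 3.35, 3.39 and 3.42 FPKM after DMSO and 3.88, 3.95 and 3.97 after Japoflavone B. The libraries of each group were close together and the groups apart, with a fold of 1.25 (log2 0.32 ± 0.08, edgeR adjusted p = 4.82e-04). SLC38A7 (ENSG00000103042, chromosome 16, 58665109 to 58684770), which exports glutamine from lysosomes, had 4.05, 3.77 and 4.07 FPKM after DMSO and 3.40, 3.02 and 3.11 after Japoflavone B. The treated libraries were lower, 1.16-fold (log2 -0.21 ± 0.09, adjusted p = 0.0336), a call lost under DESeq2 (0.0610), with no filter on counts (0.0511) and without replicate 1 or 3 of DMSO or replicate 2 or 3 of Japoflavone B (0.0641 to 0.109).

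SLC38A10 and SLC38A6, for which less is known of the cargo, fell further. SLC38A10 (ENSG00000157637, chromosome 17, 81244811 to 81295547) had 20.6, 22.9 and 21.3 FPKM after DMSO and 12.3, 12.4 and 11.7 after Japoflavone B. The groups were well apart and the fall was 1.66-fold (log2 -0.73 ± 0.06, edgeR adjusted p = 3.54e-12). SLC38A6 (ENSG00000139974, chromosome 14, 60981114 to 61114316) had 4.10, 3.38 and 3.59 FPKM after DMSO and 1.48, 1.79 and 1.6 after Japoflavone B. Every treated library was below every solvent library, and the fall was 2.13-fold (log2 -1.09 ± 0.12, adjusted p = 3.05e-09). SLC38A6 overlaps TRMT5 on the opposite strand, with 1854 and 1935 counts, and shares 4.62% of its 50-base stretches with other genes. SLC38A3, SLC38A5 and SLC38A11 had at most 5 counts per group, and SLC38A8 none.

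SLC36A4 fell furthest of the carriers with at least 1 FPKM. Proton-coupled SLC36 carriers move small neutral amino acids, and SLC36A4 has high affinity for proline and tryptophan. SLC36A4 (ENSG00000180773, chromosome 11, 93144174 to 93197991) had 5.04, 5.07 and 5.17 FPKM after DMSO and 1.33, 1.31 and 1.5 after Japoflavone B. Libraries agreed closely within groups and were far apart between them, with a fall of 3.44-fold (log2 -1.78 ± 0.08, edgeR adjusted p = 6.92e-17), and 5.3% of all genes tested had a fold change at or below it. SLC36A1 (ENSG00000123643, chromosome 5, 151437046 to 151492379), a lysosomal and plasma membrane carrier of the same family, had 2.34, 2.23 and 1.79 FPKM after DMSO and 2.31, 2.08 and 2.02 after Japoflavone B. The groups overlapped and the log2 fold change of 0.11 did not pass (95% interval -0.13 to 0.34, adjusted p = 0.413). The FPKM ratio of SLC36A1 to SLC36A4 was 0.416 ± 0.0616 and 1.56 ± 0.200 (SD, n = 3; exact permutation p = 0.1, the smallest possible). SLC36A2 and SLC36A3 had no counts.

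The SLC43 and SLC6 carriers were low. SLC43A1 (ENSG00000149150), a facilitated carrier of large neutral amino acids, had 1.22 ± 0.231 and 1.43 ± 0.134 FPKM and did not pass (log2 0.31, 95% interval -0.07 to 0.69, edgeR adjusted p = 0.132). Its relative SLC43A2 (ENSG00000167703) had 1.28 ± 0.127 and 1.20 ± 0.0011 FPKM, and its log2 fold change was 0.013 (interval -0.22 to 0.25, adjusted p = 0.921), with a sign that turned under other scalings (SD, n = 3). SLC43A3, known as a nucleobase carrier, had 17 and 7 counts over the groups. SLC6A9 (ENSG00000196517), the glycine importer, had 1.3, 0.885 and 1.33 FPKM after DMSO and 0.932, 0.727 and 0.744 after Japoflavone B. DMSO replicate 2 lay within the range of the treated libraries, and the 1.35-fold fall (adjusted p = 0.0434) was lost under DESeq2 (0.0736) and without replicate 1 or 3 of DMSO or replicate 2 or 3 of Japoflavone B (0.129 to 0.149). SLC6A14 (chromosome X, 116436606 to 116461458), a broad importer of neutral and cationic amino acids, had 8, 9 and 4 counts after DMSO and none after Japoflavone B. At the limit of 3 counts over the group this is a 6.53-fold fall. The counting error of the DMSO counts is left out of that figure, so the fall may be smaller.

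Most genes listed for the amino acid response rose. Besides responding genes, this list of genes linked to ATF4 holds the upstream genes GCN1, EIF2AK1, EIF2AK2, EIF2AK3 and EIF2AK4. Amino acid levels were not measured, and whether a shortage or GCN2 raised the listed genes was not tested. Among these upstream genes, EIF2AK3 and GCN1 were higher and EIF2AK2 lower. Of all 23 listed genes, 17 were higher and 3 lower (73.9% and 13.0%, against 34.7% and 35.4% over all genes). Their median log2 fold change was 1.40, against -0.0038 over all genes. The list was chosen with earlier results of these data known, so its difference from all genes is a description only. The transcription factor ATF4 rose from 73.7 ± 3.48 to 214 ± 4.02 FPKM (3.12-fold, edgeR adjusted p = 1.03e-20; SD, n = 3). ATF3, another stress factor, was 14.3-fold higher, the pseudokinase gene TRIB3 4.77-fold higher and the secreted glycoprotein gene STC2 11.9-fold higher. The members that fell were ATF5 (log2 -1.36), JDP2 (-0.25) and the kinase gene EIF2AK2 (-0.16), while EIF2AK4, the gene of GCN2, had a log2 fold change of 0.06 that did not pass (adjusted p = 0.419). The number that fell was 5 with library totals as the scaling or with limma on FPKM, and 1 without Japoflavone B replicate 1.

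Amino acid and peptide carriers outside the named families were also listed. Of 15 tested among 24, 10 rose and 2 fell (66.7% and 13.3%, against 34.7% and 35.4% over all genes). Their median log2 fold change was 0.44, against -0.0038. This list too was chosen with earlier results of these data known. SLC25A13, the mitochondrial aspartate and glutamate exchanger, fell from 19.2 ± 0.398 to 4.46 ± 0.243 FPKM (4.0-fold, edgeR adjusted p = 4.68e-19; SD, n = 3), and the other that fell was its relative SLC25A12 (log2 -0.55). SLC25A38, a mitochondrial glycine carrier, rose from 13.3 ± 0.890 to 28.5 ± 1.61 FPKM (log2 fold change 1.20). The taurine importer SLC6A6 was 1.55-fold and the neutral amino acid carrier SLC6A15 1.9-fold higher.

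The lysosomal machinery that senses amino acids for mTORC1 had 16 genes higher and 8 lower of 33 tested (median log2 fold change 0.19). Together 72.7% of them were called, near the 70.0% over all genes, of which 34.7% were higher and 35.4% lower. SESN2, the leucine sensor, was 4.64-fold higher (edgeR adjusted p = 4.26e-16), its relative SESN1 2.83-fold, KICS2, a subunit of the KICSTOR complex, 3.33-fold and the folliculin gene FLCN 1.62-fold. SESN2 is also in the amino acid response list. Enzymes that use the amino acids carried gave 9 higher and 8 lower of 25 tested (median -0.084), near the shares over all genes, and 14 lower with library totals as the scaling. Asparagine synthetase, ASNS, also in the response list, rose from 0.530 ± 0.0173 to 5.70 ± 0.102 FPKM (11.5-fold, adjusted p = 1.15e-19; SD, n = 3). The alanine transaminase gene GPT2 was 3.48-fold and the proline synthesis gene PYCR1 1.88-fold higher. Among the 8 that fell, PYCR3 was 1.875-fold lower (edgeR adjusted p = 4.28e-08). GLUL, also among them, was 2.41-fold lower from a low level (0.783 FPKM after DMSO, 0.300 after Japoflavone B).

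Partners and regulators of carriers gave 4 higher and 4 lower of 10 tested (median log2 fold change 0.11), near the shares over all genes (34.7% and 35.4%). CLTRN, the gene of collectrin, which accompanies SLC6 carriers to the membrane, rose from 0.107 ± 0.10 to 2.57 ± 0.252 FPKM (SD, n = 3). The fitted rise was 25.0-fold with a wide interval (log2 4.65 ± 0.39 SE, interval 3.85 to 5.44, edgeR adjusted p = 1.9e-11). Its DMSO level was very low, with an SD close to the mean, so the size of the fold is uncertain. Whether CLTRN entered the test through its Japoflavone B counts alone was not examined. Ubiquitin ligases that act on membrane carriers moved apart: NEDD4L was 2.61-fold lower and NEDD4 1.75-fold higher. The adhesion receptor gene CD44 was 1.96-fold higher. Changes of single genes in these lists are shown beside those of the carriers in the plot of gene lists.

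**Figure D4:**
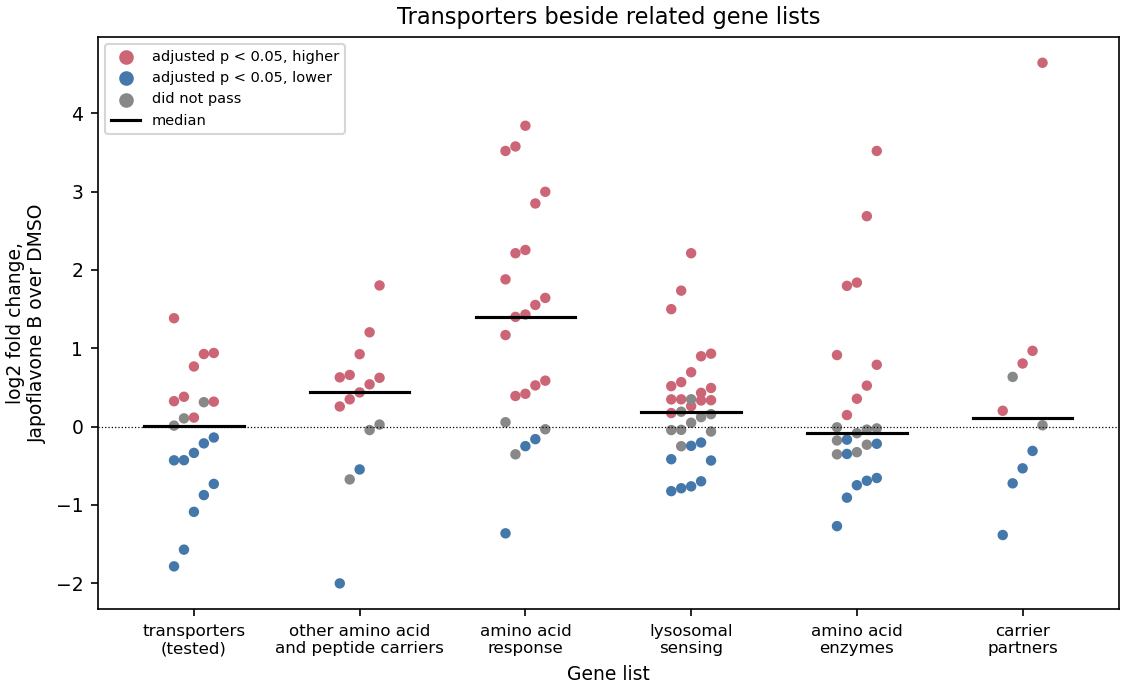
Log2 fold changes of the 21 tested carriers and of the tested genes of 5 related lists, 1 point per gene coloured by call, with a black line at the list median. In the amino acid response list 13 of 23 points lie at 1 or above, the highest at 3.84, whereas the carriers lie between -1.78 and 1.38 around a median near 0.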

How the data were processed

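The deposited table of 61806 genes holds, for each of 6 libraries, raw counts per gene as whole numbers made by the authors, and FPKM that the authors scaled by exonic gene size and library total. FPKM recomputed from the deposited counts differed by at most 0.005 and are printed here. HISAT2 2.0.1, HTSeq 0.6.1, cutadapt 1.9.1, DESeq2 and the build GRCh38 are listed without roles in the submitters' processing notes, and the labels describe poly(A) selection with random priming. Exonic sizes, in bases, and coordinates are those of the deposited table, per the file headers.

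Counts were filtered with filterByExpr (minimum count 10, minimum total 15), which kept 16082 genes, scaled by trimmed mean of M-values and fitted with edgeR 4.0.16 in R 4.3.3 (quasi-likelihood, group as the single term). P-values were adjusted by Benjamini-Hochberg over all genes tested at a threshold of 0.05. SE is the log2 fold change divided by the root of F. The gene set and all lists were chosen with earlier results of these data known. The naming rule took every carrier and, from each other list, up to 4 tested genes by adjusted p with at least 1 FPKM, and other genes named were chosen after their values were seen. Some genes that the rule takes are not reported here. Replicate numbers did not pair the libraries, whose deviations correlated at 0.013, -0.004 and -0.045. Alternatives were other scalings and filters, DESeq2 1.42.0, limma 3.58.1 on log2(FPKM + 1) and log2(FPKM + 0.1), a replicate block and each library left out. Leaving out mitochondrial genes was chosen after seeing the data. In simulated data of 16082 genes, 74% of 100 genes changed 1.5-fold and 78% of 100 changed 2-fold were recovered. Of the other 15882 genes, left unchanged, 13 were called. In the data themselves 70.0% of genes were called, far more than were changed in the simulation. The simulated rates therefore need not hold for this comparison. Promoter sequences are from RefSeq (GRCh38.p14).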

Additional observations from a re-analysis of the deposited data

How the results depend on the processing

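The number of carriers called higher was 8, and 7 or 8 in 10 alternatives of scaling, filter, test, unit, block or mitochondrial genes. The number called lower was 10, and 7 to 10 in these. With each library left out in turn the counts were 7 to 8 higher and 5 to 8 lower, and the count of 5 came without Japoflavone B replicate 3; the cause was not tested. With the replicate block they were 7 and 9; SLC38A2 (adjusted p = 0.0707) and SLC7A7 (0.0591) were then no longer called, and no other call among the carriers changed. Library totals as the scaling moved the log2 fold changes of all genes by a median of -0.10, and no called carrier changed its direction under any alternative. SLC43A2, which was not called, turned negative with library totals (-0.089), upper-quartile scaling (-9e-04), limma on log2(FPKM + 1) (-0.048) and on log2(FPKM + 0.1) (-0.078), and without DMSO replicate 1 (-0.069, against 0.068 without DMSO replicate 2); the cause was not tested. A minimum mean of 2 FPKM left 16 carriers to test, and no filter left 34. Of 160 recomputed counts of the 5 related lists, 153 stayed within 1.5 times the value given. The others were counts of genes called lower: 5 in place of 3 response genes with library totals and with limma at both offsets and 1 without Japoflavone B replicate 1, 14 in place of 8 enzymes with library totals, and 5 in place of 8 sensing genes and 2 in place of 4 partners at the minimum of 2 FPKM. Depth limits the 15 carriers below 1 FPKM, for which differences smaller than the counting intervals were not detectable, and the 7 carriers without a count.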
